A study of Mus musculus with 12 samples.

Results

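The CC chemokine ligands that draw monocytes and other leukocytes were followed as 9 genes, Ccl2, Ccl7, Ccl12, Ccl3, Ccl4, Ccl5, Ccl6, Ccl9 and Ccl24. They were taken by symbol from the count tables of CD115+ monocytes, and all 9 were found, as 9 of 52553 features, each under 1 deposited entry. The study isolated these cells from peripheral blood and spleen of male C57BL/6 mice by density gradient and magnetic beads against CD115, the receptor for colony-stimulating factor encoded by Csf1r. The 4 groups were spleen and blood of intact animals, with liver and spleen untouched, and spleen and blood taken 24 h after resection of 70% of the liver, with the spleen kept. Each group held 3 libraries and each library pooled cells of 5 mice, so the spread is between pools of animals. The labels name no sham operation for the intact animals, so surgery and loss of liver mass cannot be told apart.

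Chemokines are small secreted proteins that guide leukocytes through G protein-coupled receptors, and the CC family is named for a pair of adjacent cysteines. Ccl2, Ccl7 and Ccl12 encode ligands of Ccr2, the receptor on which inflammatory monocytes depend to leave the bone marrow. Ccl3, Ccl4 and Ccl5 encode inflammatory ligands, of which Ccl3 and Ccl5 bind Ccr1, Ccl6 and Ccl9 encode ligands of Ccr1 made by myeloid cells, and Ccl24 encodes an eotaxin that acts through Ccr3. Monocytes and macrophages produce several of these ligands themselves, while Ccl5 is also a well-known product of T cells and NK cells.

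By the RefSeq gene positions 8 of the 9 genes lie on chromosome 11, and Ccl24 lies on chromosome 5. The order on chromosome 11 is Ccl2, Ccl7, Ccl12, Ccl5, Ccl9, Ccl6, Ccl3 and Ccl4. Ccl6 and Ccl9 have 4 exons in the GENCODE M21 transcript used, the other members 3. Promoter windows of 250 bases before to 50 bases after the start (RefSeq, GRCm38.p6) were matched for 4 members, Ccl12, Ccl3, Ccl6 and Ccl9, and not for Ccl2, Ccl7, Ccl4, Ccl5 and Ccl24. The Ccl6 and Ccl9 windows are shown because these 2 genes were the most alike in level over the libraries of all pairs of members. The 150 bases before each start are printed 5′ to 3′ on the minus strand, which is the strand of both genes, from chr11:83593088-83593237 for Ccl6 and chr11:83578637-83578786 for Ccl9, with capitals for bases identical in the best local alignment of the 2 windows.
Ccl6: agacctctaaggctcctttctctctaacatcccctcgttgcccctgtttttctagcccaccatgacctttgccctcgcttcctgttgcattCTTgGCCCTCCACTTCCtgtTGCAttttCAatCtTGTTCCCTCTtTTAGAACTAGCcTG
Ccl9: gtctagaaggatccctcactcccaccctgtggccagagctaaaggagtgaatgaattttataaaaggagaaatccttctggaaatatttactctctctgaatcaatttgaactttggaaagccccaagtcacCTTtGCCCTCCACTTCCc
That alignment ran over 74 columns, of which 59 (79.7%) were identical, from base -59 to 15 around the Ccl6 start and from base -18 to 49 around the Ccl9 start. Its score was 41, against 11 to 14 for the other 5 pairs of windows. So the alike stretch sat at different distances from the 2 annotated starts.

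Of 6 motifs searched on both strands, the NF-kB motif was found once, in the Ccl9 window at base -35 on the opposite strand. It was present in 8.46% of 32851 promoter windows of the same length. The TATA box, searched as TATAAA (in 13.6% of windows), was found in the Ccl12 window at base -31, and in the Ccl9 window at bases -224 and -94 on the opposite strand and at base -92, the last 2 overlapping. AP-1 (TGACTCA, 5.2% of windows), C/EBP (TTGCNNAA, 10.8%), STAT6 (6.95%) and the ISRE core (3.44%) were not found in these 4 windows. The Ccl3 and Ccl6 windows held none of the 6.

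Library totals ran from 36990033 to 46401368 estimated counts, and 3 counts corresponded to 0.0626 to 0.102 CPM (counts scaled to a common library size with TMM factors). Csf1r was present in every library, from 209 to 1192 CPM. Haemoglobin genes took 13.2% to 34.2% of the counts in blood libraries and 0.0814% to 3.47% in spleen. Marker lists of other cells differed between libraries of a group. In intact blood library 3, where Csf1r was lowest, the Kupffer cell list summed to 347 CPM against 49.8 and 23.4 CPM in the other 2. Cd5l alone held 334 CPM of that sum, and while 3 of the 6 Kupffer cell markers were highest there, Clec4f and Cdh5 were lowest. The T cell list summed to 2480 CPM in this library against 1166 and 1201 CPM. Lck held 1202 CPM of that T cell sum, and while 5 of the 10 T cell markers were highest in this library, the other 5 (Cd2, Cd5, Cd8a, Cd8b1 and Cd247) were lowest there. In resected spleen library 3 the list of large peritoneal macrophages summed to 2696 CPM against 386 and 414 CPM. Fn1 (1792 CPM) and Saa3 (847 CPM) held most of it, and 5 of the 10 markers were highest but 3 lowest in this library. The neutrophil list summed to 14522 CPM there against 5394 and 5082 CPM. The neutrophil list also stood at 18961 CPM in resected blood library 3 against 3579 and 4309 CPM, and the erythroid list at 32762 CPM in resected spleen library 2 against 7525 and 8963 CPM. Values without these libraries stand beside the results that differ.

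In blood monocytes, 8 of the 9 ligands rose after liver resection and Ccl5 did not pass the test (edgeR's quasi-likelihood test, Benjamini-Hochberg adjusted p under 0.05 and a log2 fold change beyond 1). Over all 20135 features tested, 7.8% were called higher and 6.11% lower in this comparison. The libraries of the 2 states did not overlap for the same 8 ligands, and 19.4% of all features lay higher without overlap. When resected blood library 2 or 3 or intact blood library 1 or 2 was left out, 6 ligands were called. The calls lost each time were those on Ccl9 and Ccl12. The median log2 fold change was 3.94 over the 9 ligands and -0.10 over all features. Since the sort yields bulk RNA, more RNA per cell and more cells of a producing type cannot be told apart here.

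The ligands of Ccr2 had the 3 largest estimates. Ccl2, the principal ligand for inflammatory monocytes, was at 3.08, 5.88 and 2.91 CPM in the 3 libraries of intact blood and at 89.3, 265 and 154 CPM in resected blood. Every resected library was above every intact one, and the log2 fold change was 5.42 (SE, its standard error, 0.93, with an adjusted p of 0.00414), or 42.9-fold. Ccl7, its neighbour on the chromosome, was at 0.523, 1.70 and 1.64 CPM in intact and at 13.8, 58.0 and 36.1 CPM in resected blood. Here too the groups did not overlap, at a log2 fold change of 4.80 (0.69, adjusted p = 0.00215). Ccl12 was close to the limit of counting in intact blood, with 0, 1 and 4 counts, and had 23, 61 and 80 counts in resected blood, or 0.702, 2.07 and 2.25 CPM. The 2 groups did not overlap and its log2 fold change was 5.31 (1.36, adjusted p = 0.0219). The Ccl12 call was lost without intact blood library 1 or 2 or resected blood library 2 or 3 (adjusted p up to 0.0668), and without intact blood library 3 its value was 6.70.

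Of the inflammatory ligands Ccl3, Ccl4 and Ccl5, the first pair rose and Ccl5 did not pass the test. Ccl3, which encodes a macrophage inflammatory protein, was at 13.7, 12.5 and 6.12 CPM in intact blood and at 84.5, 406 and 264 CPM in resected blood. Resected library 1 was the lowest of its group and still above all intact libraries, and the log2 change was 4.55 (0.59, adjusted p = 0.00138). Ccl4, the neighbour of Ccl3 on the chromosome, was at 11.6, 10.7 and 4.85 CPM in intact and at 38.3, 213 and 165 CPM in resected blood. Its libraries followed the same order as those of Ccl3, without overlap between the groups, at a log2 fold change of 3.94 (0.62, adjusted p = 0.00311). Ccl5 was at 74.0, 111 and 17.4 CPM in intact and at 37.3, 40.2 and 41.5 CPM in resected blood. The intact libraries lay on both sides of the resected ones, and the log2 change was -0.77 (0.56, adjusted p = 0.354). Without intact blood library 3, whose T cell markers went both ways and whose NK cell list was the lowest of its group, the Ccl5 log2 fold change was -1.23 with an adjusted p of 0.0450.

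Ccl6 and Ccl9, the myeloid ligands of Ccr1, had the highest CPM of the members in blood in both states, a scale that does not correct for transcript length. Ccl6 was at 670, 549 and 418 CPM in intact blood and at 3009, 3501 and 2515 CPM in resected blood. The log2 fold change was 2.46 (0.42, adjusted p = 0.00395), or 5.51-fold, with no overlap between the groups. Ccl9 was at 368, 270 and 161 CPM in intact and at 1255, 1572 and 1185 CPM in resected blood. All 3 resected libraries lay above the intact ones, at a log2 fold change of 2.33 (0.66, adjusted p = 0.0327). The Ccl9 call was lost when any 1 of the 6 blood libraries, or intact spleen library 1 or 2, was left out (adjusted p up to 0.0905), and it held without intact blood library 3 and resected spleen library 3 together. Ccl24, the eotaxin, was at 50.9, 40.4 and 18.1 CPM in intact and at 229, 228 and 249 CPM in resected blood. The resected libraries were close to each other and all above the intact ones, at a log2 fold change of 2.69 (0.63, adjusted p = 0.0155).

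**Figure D1:**
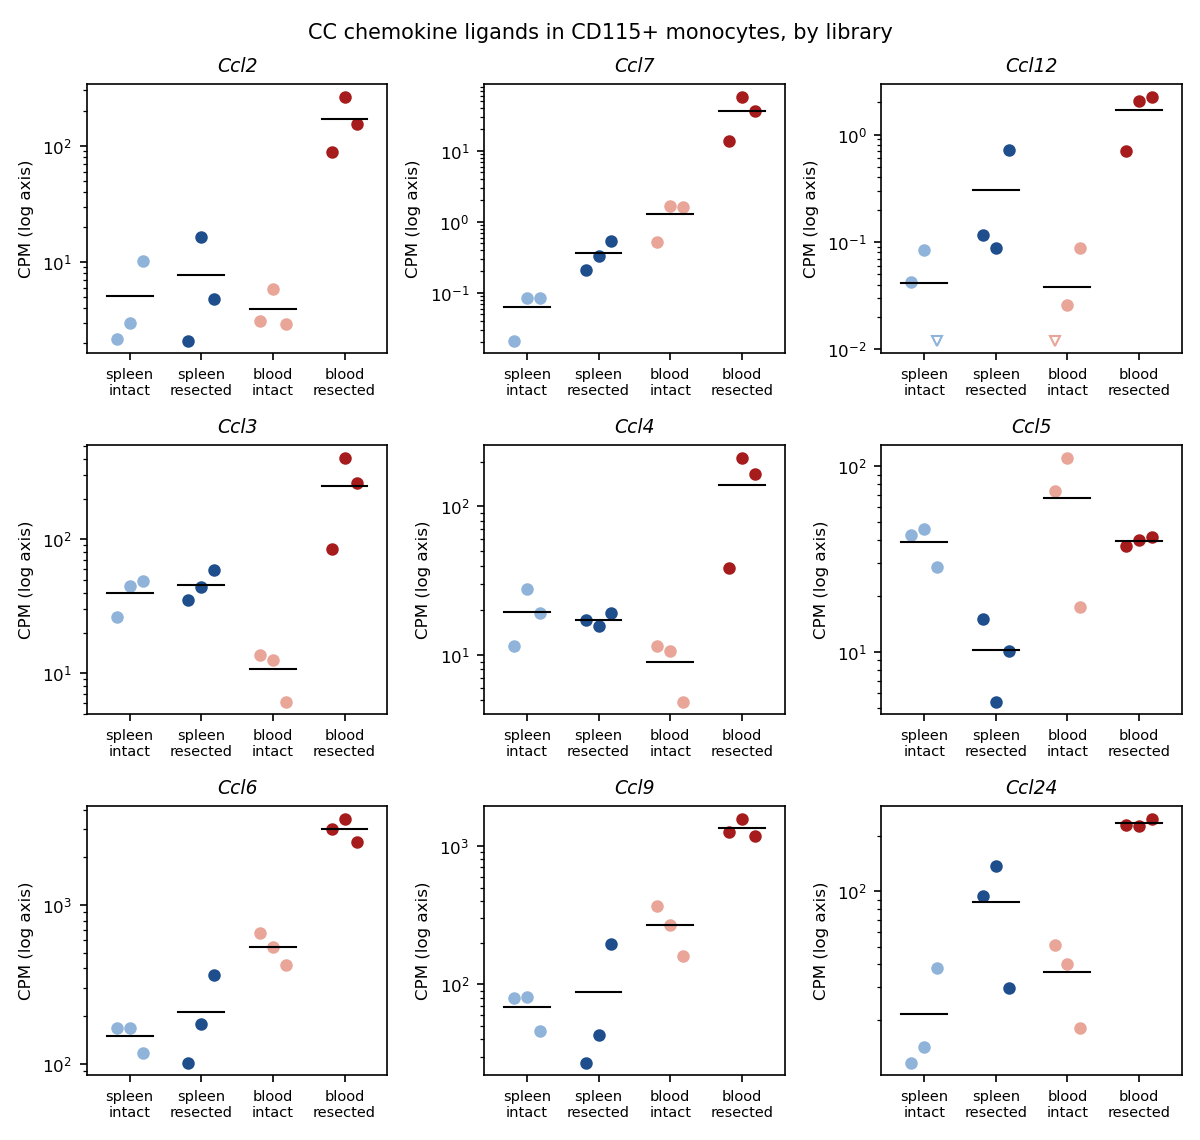
Level of the 9 ligands in each library, as CPM on a log axis that differs between panels. Each dot is 1 library of 5 pooled mice, the line is the group mean, and an open triangle marks a library with 0 counts. In 8 panels the 3 resected blood libraries lie above the 3 intact blood libraries, and in the panel of Ccl5 they lie among them.

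In splenic monocytes, 0 of the 9 ligands passed edgeR's quasi-likelihood test after resection, where 0.78% of all features were called higher and 0.596% lower. At an unadjusted p under 0.05 there were 4, with Ccl7, Ccl12 and Ccl24 at positive and Ccl5 at negative values, against 11.5% and 9.31% of all features in these directions. Without overlap, 2 members lay higher (17.4% of all features) and 1 lower (17.7%). DESeq2 on the same counts called 3, Ccl7 and Ccl24 higher and Ccl5 lower. The median log2 fold change of the 9 was 0.50, beside 0.05 for all features.

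The Ccr2 ligands were scarce in spleen. Ccl2 was at 2.17, 3.01 and 10.3 CPM in intact spleen and at 2.10, 16.4 and 4.84 CPM in resected spleen. The groups overlapped, and the log2 fold change of 0.59 (SE 0.78) turned to -0.57 without resected spleen library 2. Ccl7 had 1, 4 and 4 counts in intact spleen and 9, 15 and 22 counts in resected spleen, which is 0.0210 to 0.0851 against 0.210 to 0.541 CPM. These libraries did not overlap, and the log2 change was 2.45 (0.76, adjusted p = 0.111). Ccl12 had 2, 4 and 0 counts in intact and 5, 4 and 29 counts in resected spleen, with the highest value in resected library 3. Its CPM values did not overlap, at a log2 fold change of 2.77 (1.24, adjusted p = 0.240). The highest intact and the lowest resected library both had 4 counts, so only the scaling set them apart (0.0835 and 0.0873 CPM).

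Ccl3 and Ccl4 lay close together in the 2 states of the spleen. Ccl3 was at 26.2, 44.7 and 48.7 CPM in intact and at 35.1, 43.9 and 58.6 CPM in resected spleen. Its log2 fold change was 0.20 (0.51, adjusted p = 0.866), with overlapping groups. Ccl4 was at 11.6, 27.8 and 19.1 CPM in intact and at 17.1, 15.6 and 19.2 CPM in resected spleen, a log2 fold change of -0.17 (0.56, adjusted p = 0.904). Ccl5 was at 42.6, 46.0 and 28.5 CPM in intact and at 15.1, 5.39 and 10.1 CPM in resected spleen. All 3 resected libraries were below the intact ones, at a log2 fold change of -1.93 (0.57, adjusted p = 0.101). Leaving out intact blood library 3, although it is not among the libraries compared, changed the spread estimated over the 4 groups, and the adjusted p of Ccl5 was then 0.0180.

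Ccl6 was at 167, 167 and 118 CPM in intact spleen and at 102, 178 and 361 CPM in resected spleen, and Ccl9 at 79.0, 81.1 and 45.8 CPM and at 27.1, 42.8 and 196 CPM. For both genes resected spleen library 3 was the highest of the 6 splenic libraries. The log2 fold change was 0.50 (0.40) for Ccl6 and 0.37 (0.63) for Ccl9, and without that library they were -0.11 and -0.97. Ccl24 was at 11.7, 14.2 and 38.5 CPM in intact and at 93.8, 138 and 29.6 CPM in resected spleen. Here resected library 3 was the lowest of its group and lay within the intact range. The log2 fold change of Ccl24 was 2.02 (0.62, adjusted p = 0.107), and without that library and intact blood library 3 it was 2.44 (adjusted p = 0.0358). The same 2 libraries left out gave 2 members called in spleen, Ccl24 higher and Ccl5 lower.

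The difference between the resection effects of the 2 tissues was tested directly. All 9 estimates were positive, from 0.66 for Ccl24 to 4.83 for Ccl2, which is a larger log2 fold change in blood than in spleen. None of the 9 passed edgeR's test after adjustment, against 0.219% of all features called in that direction and 0.0646% in the other, and 5 had an unadjusted p under 0.05, against 7.74%. The smallest adjusted p was that of Ccl3, whose difference was 4.35 (SE 0.75, adjusted p = 0.0517). For Ccl4 the difference was 4.11 (0.82, adjusted p = 0.0746), for Ccl2 4.83 (1.16, adjusted p = 0.116) and for Ccl6 1.96 (0.56, adjusted p = 0.162). DESeq2 called these 4 genes. Without resected blood library 1, the lowest of its group for Ccl3 and Ccl4, those 2 were called (4.78 and 4.57, adjusted p = 0.0221 and 0.0258). Ccl6 and Ccl9 were called without resected spleen library 3 (2.57 and 3.30, adjusted p = 0.0463 for both).

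**Figure D2:**
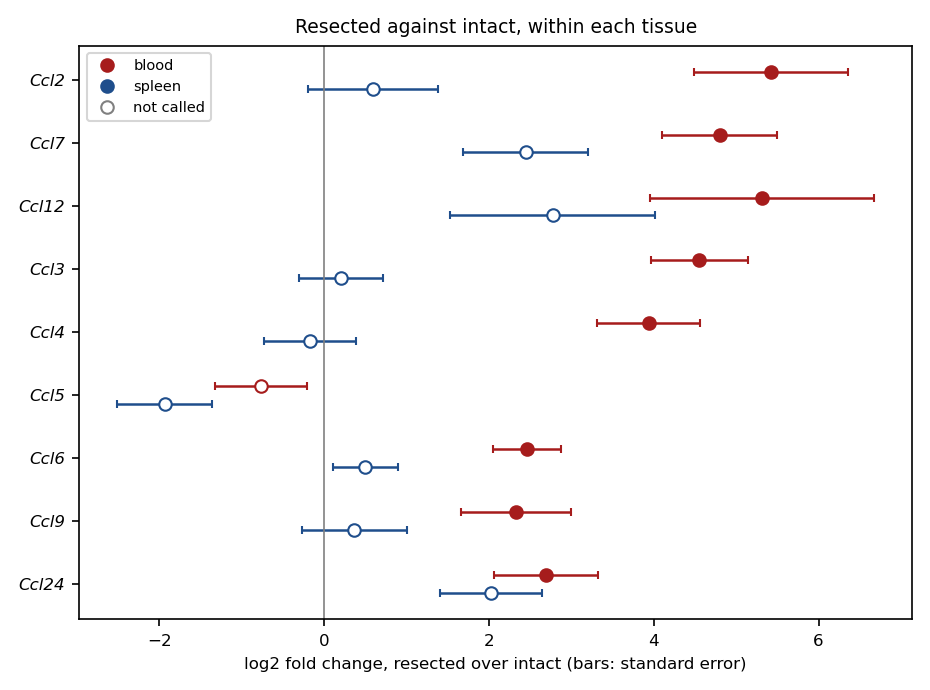
Log2 fold change of each ligand, resected over intact, in blood and in spleen, from edgeR's fit over 12 libraries. Points are estimates, bars standard errors, and open points did not pass the test. In blood the filled points run from 2.33 for Ccl9 to 5.42 for Ccl2, and in spleen all 9 points are open.

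In intact animals, 2 of the 9 ligands were called higher in blood than in splenic monocytes, against 3.86% of all features, and 0 lower, against 3.49%. DESeq2 called 3 higher (Ccl7, Ccl6 and Ccl9) and 1 lower (Ccl3), and 4 members had an unadjusted p under 0.05 in edgeR's test. The shares of all features by DESeq2 and at this p are not given here, so these counts cannot be set against a general rate. Libraries did not overlap for 3 members that lay higher in blood (13.6% of all features) and 2 that lay lower (20.9%). These comparisons use the same intact libraries as the resection effects above. Ccl7 was higher in blood by 4.28 on the log2 scale (SE 0.76, adjusted p = 0.00995), from 1 to 4 counts in each splenic library. Ccl6 was higher by 1.85 (0.41, adjusted p = 0.0232). This call was lost without intact spleen library 1, 2 or 3 or intact blood library 1 (adjusted p up to 0.0762). Ccl9 had a value of 1.96 (0.65, adjusted p = 0.0921), with all intact blood libraries above the splenic ones. Without resected spleen library 3 the adjusted p of Ccl9 was 0.0110. Ccl3 and Ccl4 stood the other way, with every intact blood library below every intact splenic one for Ccl3 (-1.89, standard error 0.53, adjusted p = 0.0524). For Ccl4 the value was -1.11 (0.56, adjusted p = 0.252), and the highest blood value, 11.56 CPM, was just under the lowest splenic one, 11.57 CPM. Ccl3 was called lower in blood by DESeq2, and by edgeR without resected blood library 1 (-1.81, adjusted p = 0.0311). Ccl2 (-0.38), Ccl12 (-0.09), Ccl24 (0.77) and Ccl5 (0.79) overlapped between the tissues.

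After resection, 7 of the 9 ligands were called higher in blood than in splenic monocytes, against 6.28% of all features, and 0 lower, against 6.87%. DESeq2 called 8 higher and 0 lower. Without overlap 8 lay higher, against 17.2% of all features. The largest value was that of Ccl7, at 6.63 (SE 0.76, adjusted p = 0.000826). Ccl2 stood at 4.45 (0.89, adjusted p = 0.00843), and at 5.71 without resected spleen library 2. Ccl6 and Ccl9 were higher by 3.82 (0.44, adjusted p = 0.000851) and 3.91 (0.71, adjusted p = 0.00579), and by 4.52 and 5.36 without resected spleen library 3. Ccl3, which had the opposite sign in intact animals, was higher in blood by 2.46 (0.53, adjusted p = 0.0125), and missed the threshold without resected spleen library 1 (adjusted p = 0.0501). Ccl4 was higher by 3.00 (0.60, adjusted p = 0.00838).

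Ccl5 was higher in blood after resection by 1.96 (0.57, adjusted p = 0.0397), although neither tissue's own change passed the test. The call on Ccl5 was lost without intact spleen library 1 or 2, resected spleen library 1, 2 or 3, resected blood library 1, 2 or 3 or intact blood library 1 (adjusted p up to 0.120), and with no filter on low counts (0.0544). Ccl24 had a value of 1.43 (0.60, adjusted p = 0.126) with no overlap between the tissues, and DESeq2 called it (1.55, adjusted p = 0.0361). Ccl12 had 2.45 (1.16, adjusted p = 0.168), with resected spleen library 3 at 0.713 CPM just above the lowest blood library at 0.702 CPM. It was called without resected spleen library 3 and intact blood library 3 together (4.10, adjusted p = 0.0315).

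**Figure D3:**
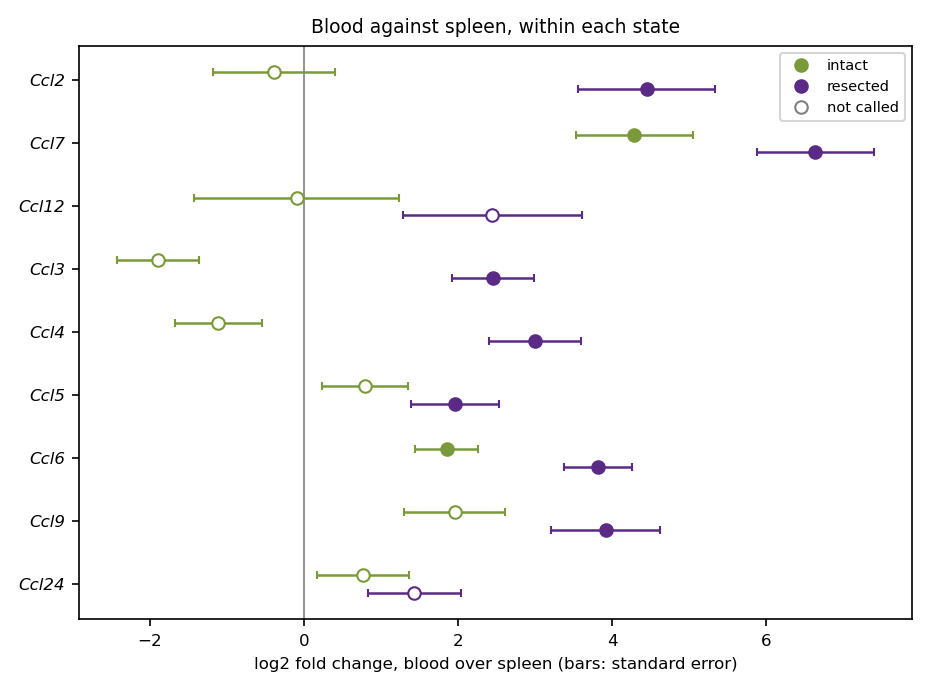
Log2 fold change of each ligand, blood over spleen, in intact and in resected animals, from edgeR's fit over 12 libraries. Points are estimates, bars standard errors, and open points did not pass the test. Ccl3 lies at -1.89 in intact and at 2.46 in resected animals, and Ccl7 is filled in both states.

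To set the members against each other, levels were divided by transcript length (CPM per kb of mRNA). Ccl6 ranked first in all 4 groups on this scale, with a mean of 105 ± 19.8 in intact spleen, 148 ± 92.6 in resected spleen, 379 ± 87.5 in intact blood and 2089 ± 342 CPM per kb in resected blood (SD, n = 3). Summed over the 9 members, the level was 286 to 345 CPM per kb in intact spleen, 255 to 472 in resected spleen, 412 to 806 in intact blood and 3050 to 4461 in resected blood. Ccl5 followed at rank 2 in intact spleen and intact blood. In resected blood Ccl9 had rank 2 (445 ± 68.6 CPM per kb) and Ccl3 rank 3 (329 ± 211), with overlapping libraries, and Ccl5 had rank 7. Ccl12 had the lowest median and Ccl7 the next in all 4 groups, and all ranks given here are by the median. By the mean, Ccl7 (0.449) was below Ccl12 (0.569 CPM per kb) in resected spleen.

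The make-up of the sum also differed between groups. Ccl6 held 28.7% to 40.7% of it in intact spleen, 50.6% to 70.5% in intact blood and 53.8% to 68.5% in resected blood. Ccl3 held 11.9% to 22.2% in intact spleen against 1.94% to 2.22% in intact blood. Ccl5 held 7.96% to 27.8% in intact blood and 1.69% to 2.41% in resected blood. In resected spleen Ccl24 held 28.4% and 29.9% in libraries 1 and 2, the first being the 1 library of 12 in which Ccl6 did not lead, and 4.85% in library 3.

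**Figure D4:**
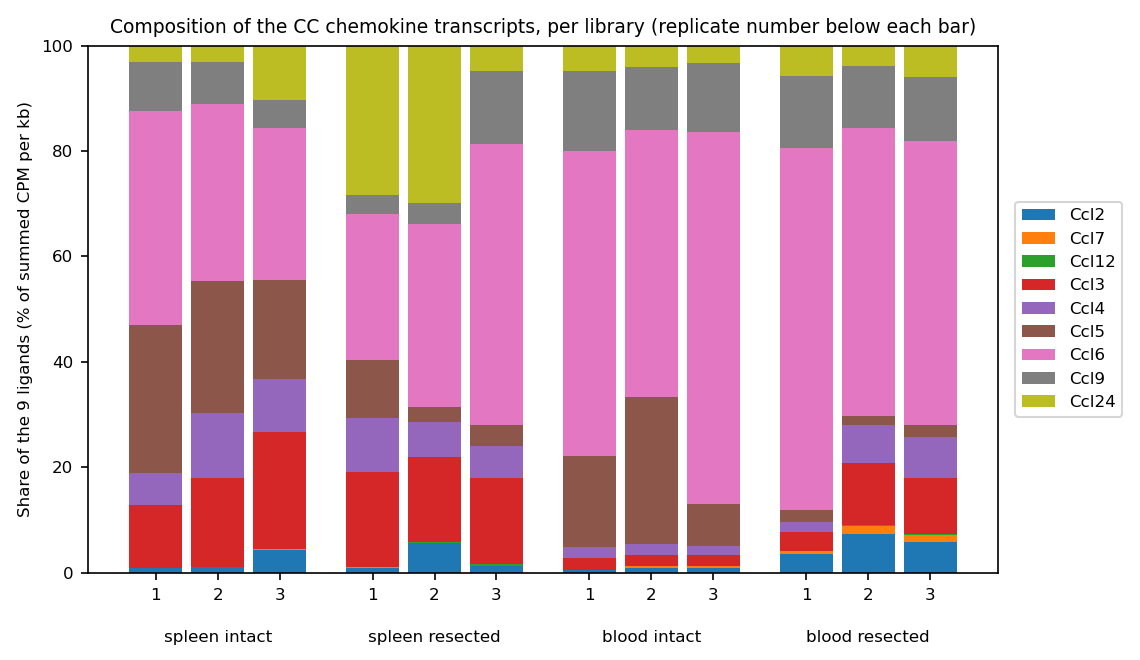
Share of each ligand in the summed CPM per kb of the 9, in percent, 1 bar per library with its replicate number. Ccl6 is the largest share in 11 of 12 bars, and resected spleen library 3 lacks the large Ccl24 share of the other 2 in its group.

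Likeness of pattern was measured as the root mean square difference of log2 CPM over the 12 libraries, after each gene's own mean was subtracted. Among the 36 pairs of members Ccl6 and Ccl9 were closest (0.36), then Ccl3 and Ccl4 (0.46), and Ccl7 and Ccl5 were farthest (3.07). The count ratio of Ccl9 to Ccl6 lay between 0.240 and 0.549 in all libraries, and that of Ccl7 to Ccl2 between 0.00828 and 0.564. The ratio of Ccl4 to Ccl3 was 0.793 to 0.860 in intact blood and 0.454 to 0.624 in resected blood, without overlap. Counts of Ccl3 were in part fractional, while those of Ccl4 were whole numbers in every library. The RefSeq spans of the 2 genes overlap on opposite strands, and the labels name a strand-specific library. How reads were shared between entries is not known, and its part in this ratio was not tested. Outside the family, Naip1, an inflammasome sensor, was among the nearest to Ccl6 (0.39). Nlrp3, another inflammasome sensor, and Osm, a cytokine, followed Ccl4 as nearest to Ccl3 (0.54 and 0.59). Nearest to Ccl5 were Sytl3, Il2rb, a chain of the interleukin receptors used by T and NK cells, and Capsl (0.40 to 0.42), and nearest to Ccl24 were Ptgs1, a cyclooxygenase, Nxpe5 and Bmp2 (0.54 to 0.57). Ccl4 had 1110002J07Rik and Osm (both 0.60) after Ccl3, and Ccl9 had Eml1 (0.44) after Ccl6. For the scarcer Ccl2, Ccl7 and Ccl12 the nearest were Cyp26a1 (0.88), Klk9 (0.73) and Prune2 (0.48), and the next were Ifnb1 and Prss35, Flrt3 and Vmn2r26, and Raet1d and Clmp.

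Lists of marker genes of other cells moved with several members, and the part of those cells in the results was not tested. The 10 markers of large peritoneal macrophages summed to 3874 to 7509 CPM in intact blood, 22790 to 33430 CPM in resected blood and 373 to 524 CPM in intact spleen. Of these 10, 8 were called higher after resection in blood and 0 in spleen (by edgeR, with 2 positive and 2 negative at an unadjusted p under 0.05, and 1 by DESeq2), and 8 were called higher in intact blood than in intact spleen. None of the list was at 0 over a whole group. Fn1, which is not restricted to these macrophages, held the largest part (3051 to 6230 CPM in intact and 13799 to 19748 CPM in resected blood). Gata6, their defining transcription factor, was at 2.85 to 5.86 CPM in intact blood, 17.7 to 23.7 CPM in resected blood and at most 0.163 CPM in spleen. The ligand pair set beside this list is Ccl6 and Ccl9. Their libraries also lay higher in blood than in spleen in each state and higher in resected than in intact blood. Those of Ccl7 did so too. Naip1, one of the nearest genes to Ccl6, belongs to the list. In resected spleen library 3, 5 members (Ccl3, Ccl6, Ccl7, Ccl9 and Ccl12) were highest among the 6 splenic libraries. The list was also highest there, at 2696 CPM, with Saa3 at 847 and Fn1 at 1792 CPM and Gata6 at 0.147 CPM. Timd4, Alox15 and Icam2 of the list went the other way and were the lowest of the group there (3.07, 1.47 and 11.6 CPM). The neutrophil list was at its splenic maximum in the same library.

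The 10 NK cell markers, set beside Ccl5, summed to 107 to 204 CPM in intact spleen, 19.9 to 63.4 CPM in resected spleen, 163 to 442 CPM in intact blood and 51.1 to 132 CPM in resected blood. Intact blood library 3 was the lowest of its group for this sum and for Ccl5. Of the 9 NK markers tested, 1 was called lower in blood and 0 in spleen after resection by edgeR, while 5 and 7 had an unadjusted p under 0.05 and DESeq2 called 4 and 6 lower. Klra8 was at 0 in resected blood. Ncr1, a defining NK receptor, was at 0.172 to 2.22 CPM in resected spleen and 8.47 to 19.0 CPM in intact spleen. The 10 T cell markers summed to 326 to 488 CPM in intact spleen, 171 to 301 CPM in resected spleen, 1166 to 2480 CPM in intact blood and 225 to 492 CPM in resected blood, where 7 of 10 were called lower than in intact blood. The 10 neutrophil markers, all called higher in resected than in intact blood, summed to 105 to 328 and 3579 to 18961 CPM there, and to 859 to 1894 and 5082 to 14522 CPM in intact and resected spleen. The 8 red pulp macrophage markers, set beside Ccl24, summed to 1270 to 1976 CPM in intact spleen and to 3146, 4658 and 2252 CPM in libraries 1 to 3 of resected spleen. That is the order of the 3 libraries for Ccl24. The eosinophil list (148, 230 and 92.3 CPM), Ccr3 within it (82.5, 156 and 12.3 CPM) and Trf of the hepatocyte list (532, 730 and 305 CPM) had the same order. In blood the red pulp macrophage list was at 135 to 403 CPM in intact and 1197 to 1520 CPM in resected animals. Hmox1 (565 to 801 CPM) and Cd5l (431 to 645 CPM) held most of the sum in resected blood. Spic was at 1.98 to 6.42 CPM and Vcam1 at 1.37 to 4.78 CPM there, against 31.3 to 126 and 377 to 1572 CPM in spleen. Cd5l held 334 CPM of the 403 CPM, which was the sum in intact blood library 3. Of the 8 genes, 5 were called higher after resection, while Axl went the other way and DESeq2 called it lower. Axl was at 18.9 to 44.3 CPM in intact and 6.50 to 11.0 CPM in resected blood. The 8 platelet markers summed to 16.2 to 26.9 CPM in intact spleen, 16.3 to 33.4 CPM in resected spleen, 96.1 to 340 CPM in intact blood and 838 to 920 CPM in resected blood. Pf4 alone held 20.2 to 72.7 CPM in intact and 537 to 643 CPM in resected blood. Only 1 of the 8 was called higher in blood after resection, with a median log2 fold change of 0.50 over the list. Of these 8, 7 were called higher in blood than in spleen in intact animals and 8 after resection, the comparison in which 7 ligands were called.

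**Figure D5:**
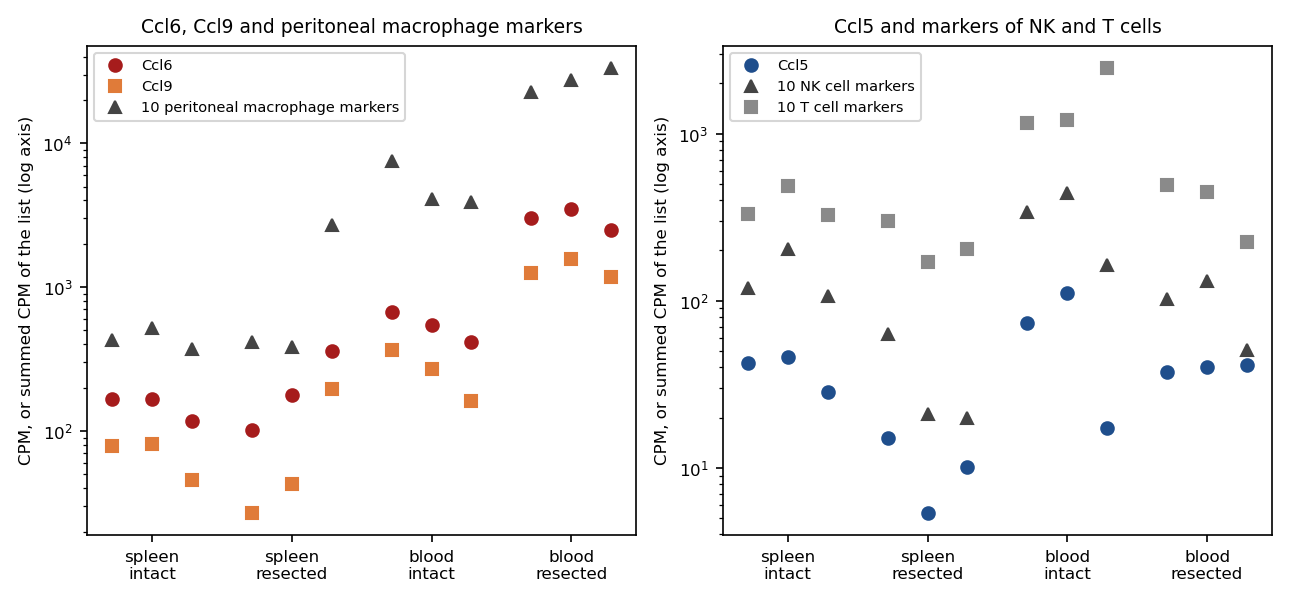
Left, CPM of Ccl6 and Ccl9 beside the summed CPM of 10 markers of large peritoneal macrophages, and right, CPM of Ccl5 beside the summed CPM of 10 NK cell and 10 T cell markers, per library on log axes, with libraries 1 to 3 from left to right in each group. Resected spleen library 3 stands at 2696 CPM in the left list, of which Fn1 makes up 1792 and Saa3 847 CPM. Intact blood library 3 is the highest for the T cell sum, of which Lck makes up 1202 of 2480 CPM, while 5 of the 10 markers are lowest there. It is also the lowest of its group for the NK cell sum.

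The receptors that bind these ligands were tested as a list of 7. In blood after resection 1 of 7 rose, Ccr1, the receptor of Ccl3, Ccl5, Ccl6 and Ccl9. It was at 38.9, 44.1 and 19.9 CPM in intact and at 104, 159 and 238 CPM in resected blood, with no overlap and a log2 fold change of 2.28 (SE 0.50, adjusted p = 0.0118). Ccr2, which binds Ccl2, Ccl7 and Ccl12, was at 370, 349 and 104 CPM in intact and at 333, 357 and 231 CPM in resected blood (0.16, standard error 0.43, adjusted p = 0.829). In spleen 0 of 7 receptors passed edgeR's test, with 2 (Ackr1 and Ccr2) at an unadjusted p under 0.05 and 0 called by DESeq2. In the test of the difference between tissues 0 of 7 passed, where Ccr1 alone had an unadjusted p under 0.05 (1.99) and was called by DESeq2. Ccr2 was at 121 to 227 CPM in intact and 59.7 to 96.8 CPM in resected spleen, without overlap (-1.09, standard error 0.44, adjusted p = 0.192).

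Between the tissues, Ccr3, the receptor of Ccl24 and a marker of eosinophils, was lower in blood in both states. It was at 26.2 to 60.7 CPM in intact spleen, 12.3 to 156 CPM in resected spleen and at most 1.62 CPM in blood, with log2 fold changes of -5.12 (adjusted p = 0.00668) and -7.05 (adjusted p = 0.00140). After resection Ccr2 was higher in blood than in spleen (1.89, adjusted p = 0.0176), and Ccr1l1, a close relative of Ccr1 with at most 2.10 CPM in any library and reads that could be shared with it, was lower (-3.80, adjusted p = 0.0425). The atypical receptors Ackr1 and Ackr2, which bind chemokines without G protein signalling, passed the test in none of the comparisons and were at most 6.96 CPM.

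Of the 15 other CC ligands 4 passed the count filter, and 0 of these were called in either tissue after resection by edgeR. In blood Ccl17 had an unadjusted p under 0.05 and was called by DESeq2, and in spleen there were 0 at that level and 0 by DESeq2. Ccl17 was higher in resected blood than in resected spleen (3.38, adjusted p = 0.0111), at 0.577 to 1.68 CPM. Cytokines known to induce CC ligands were tested as 7 of a list of 9, since Il4 and Il13 did not pass the filter. In blood 6 of the 7 rose, namely Il1a (8.80, adjusted p = 0.000623), Tnf (6.16, adjusted p = 0.00111), Il10 (5.78, adjusted p = 0.00170), Il6 (5.56, adjusted p = 0.00161), Il1b (3.95, adjusted p = 0.00457) and Csf2 (3.86, adjusted p = 0.0175). In spleen Il1a (3.61, adjusted p = 0.0396) and Tnf (3.25, adjusted p = 0.0397) rose, in the tissue in which no member passed. With no filter on low counts 0 of these cytokines were called in spleen, and DESeq2 called 3, with Il10. Tnf, a main inducer of Ccl2, was at 9.26 to 15.0 CPM in intact blood, 621 to 1198 CPM in resected blood, 9.83 to 18.5 CPM in intact spleen and 39.7 to 266 CPM in resected spleen. After resection Il6 (8.36), Il1a (5.16), Csf2 (3.93), Il10 (2.98) and Tnf (2.72) were higher in blood than in spleen, with adjusted p from 0.000571 to 0.0180. In intact animals Il1b was lower (-2.98, adjusted p = 0.0240) and Il6 higher (3.00, adjusted p = 0.0352) in blood.

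Among 10 genes of the NF-kB family, the transcription factors and inhibitors that act on many chemokine promoters, 5 rose in blood. They were Nfkbiz (3.16, adjusted p = 0.00241), Nfkbia (2.74, adjusted p = 0.00112), Bcl3 (2.07, adjusted p = 0.0104), Nfkbie (1.81, adjusted p = 0.00980) and Relb (1.62, adjusted p = 0.0196). Nfkbia, the inhibitor that NF-kB itself induces, was the 1 that passed edgeR's test in spleen (2.00, adjusted p = 0.0253), where DESeq2 called 3, with Nfkbiz and Tnfaip3. Nfkbia (1.19, adjusted p = 0.0258) and Nfkbie (1.22, adjusted p = 0.0461) were higher in resected blood than in resected spleen, and Tnfaip3 in intact blood than in intact spleen (1.67, adjusted p = 0.0259). For the difference of the resection effects, 0 of the 7 cytokines and 0 of the 10 NF-kB genes passed edgeR's test, 6 and 5 had an unadjusted p under 0.05, and DESeq2 called 6 and 3. Of 7 genes that regulate the decay of chemokine mRNA, Zfp36 (1.82, adjusted p = 0.0213) and Zc3h12a (1.55, adjusted p = 0.0408) rose in blood, while in spleen 0 passed edgeR's test, 2 had an unadjusted p under 0.05 and DESeq2 called 0. Zfp36 (-2.07, adjusted p = 0.0251) and Zfp36l1 (-1.86, adjusted p = 0.0182) were lower in intact blood than in intact spleen, and Zfp36l1 also after resection (-1.22, adjusted p = 0.0480). Of 19 genes of chemokine receptor signalling, Rgs1 (2.35, adjusted p = 0.00671), a brake on G protein signalling, and Arrb2 (1.34, adjusted p = 0.0184), an arrestin, rose in blood. In spleen 0 of the 19 passed edgeR's test, 2 (the same genes) had an unadjusted p under 0.05 and DESeq2 called Rgs1. In resected blood against resected spleen Gnai3 was higher (1.25, adjusted p = 0.0102) and Grk3 (-2.18, adjusted p = 0.00947) and Rgs2 (-1.55, adjusted p = 0.0282) were lower. All adjusted p-values of these lists come from the same edgeR test and were corrected over all features.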

How the data were processed

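Values are estimated counts, deposited by the authors as 1 unscaled table for each library. The submitters' processing notes name STAR and GRCm39. The counting tool and the annotation are not given in the sources used here, and the labels name a strand-specific mRNA library. Each table had 67088 entries, of which 2558 unassigned transcripts (1.75% to 4.33% of a library) were left out. RefSeq accessions were matched to symbols by the names in a RefSeq gene table (GRCm38.p6) for 25340 of 40274. Counts were summed per gene and rounded, which gave 52553 features. In R 4.3.3 with edgeR 4.0.16, filterByExpr kept 20135. A robust quasi-likelihood model with TMM factors was fitted over 12 libraries and 4 groups, without covariates, and p-values were adjusted by Benjamini-Hochberg over all features. Calls needed an adjusted p under 0.05 and a log2 fold change beyond 1 in either direction. Shares over all features are given for edgeR's calls and not for those of DESeq2, whose counts of members therefore have no general rate beside them. Standard errors (SE) were derived from the size of the fold change and its F statistic. Limits of counting cover counting error only. The test was checked on simulated counts.

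The members, the lists of receptors, ligands, regulators and cell markers, and the rule for named genes (every member, every receptor, every list gene called in a comparison, and the 3 nearest genes per member by likeness, computed with a prior count of 2) were chosen with earlier results of these data known. Some genes that this rule names are not reported here. Transcript lengths and exons are from GENCODE M21, and gene positions and promoter sequences from RefSeq (GRCm38.p6). Windows were aligned with Biopython 1.88 (match 1, mismatch -1, gap -2 and -1). Alternatives were DESeq2 1.42.0, RLE factors, other count filters, no fold limit, entries as deposited, the replicate number as a block, haemoglobin genes left out, only the groups compared, each library left out, and, chosen after seeing the data, intact blood library 3 and resected spleen library 3 left out together.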

Additional observations from a re-analysis of the deposited data

How the results depend on the processing

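The number of ligands called was 8 in blood after resection, 0 in spleen, 2 in intact and 7 in resected blood against spleen, and 0 for the difference of the resection effects. Apart from the settings that leave out 1 library, whose ranges are given below, it moved by over 1.5 times in 8 cases. DESeq2 called 3 in spleen, 4 in intact blood against spleen and 4 for the difference. A minimum of 10 counts in every library, which removed Ccl7 and Ccl12, gave 2 for the difference, and without both intact blood library 3 and resected spleen library 3 there were 2 in spleen and 2 for the difference. The replicate number as a block gave 1 in spleen (Ccl7, adjusted p = 0.0361) and 1 in intact blood against spleen, where Ccl6 missed the threshold (0.05005). With the block Ccl9 in blood after resection (0.0687) and Ccl5 in resected blood against spleen (0.0551) missed it too. The labels do not say whether the numbers pair samples. Same-numbered libraries of 2 groups correlated from -0.0460 to 0.189, and above 0.1 in 2 of 12 pairs. Both of those set resected blood against resected spleen, where numbers 1 to 3 gave 0.0420, 0.131 and 0.189. Different numbers there gave -0.186 to 0.0734, and whether blood and spleen came from the same animals was not tested. With 1 library left out in turn the counts ranged from 6 to 8, 0 to 1, 1 to 3, 5 to 7 and 0 to 2 in the same order. Over all alternatives 893 single values kept their direction and their side of the threshold, 30 lost and 29 gained a call, and 16 changed sign, none of them called. These 16 were Ccl12 in intact blood against spleen (0.00880 without haemoglobin genes, and 0.89, 0.44 and 0.12 without intact spleen library 2 or intact blood library 1 or 2, within a range of -1.39 to 0.89 with 1 library left out), Ccl2 there (0.71 without intact spleen library 3, down to -0.71 with 1 library left out), and in spleen after resection Ccl2 (-0.57 without resected spleen library 2, up to 1.58), Ccl3 (-0.0280 without intact spleen library 1, up to 0.37, -0.00874 without resected spleen library 3 and -0.00825 without both), Ccl4 (0.18 without intact spleen library 2, down to -0.44), Ccl6 (-0.11 without resected spleen library 3 and without both, up to 0.84) and Ccl9 (-0.97 in the same 2 settings, up to 0.80). The last was the difference for Ccl24 (-0.0663 without intact spleen library 3 within a range up to 1.16 with 1 library left out, and -0.0822 without both). The causes were not tested. Ccl2, Ccl3, Ccl4, Ccl6 and Ccl24 were called in blood after resection in every setting, and Ccl7 in every setting in which it was tested. Of 120 counts recomputed for the lists of receptors, other ligands, signalling, NF-kB, decay and cytokines, 21 moved by over 1.5 times. Depth limits Ccl7 and Ccl12, with counts of 0 to 4 in intact spleen. The median log2 fold change of all features in blood was -0.10 with TMM, -0.08 with RLE factors and 0 without intact blood library 3.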
